A study of Arabidopsis thaliana with 2 samples.

Results

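The genes studied here lie on chromosome 2 of Arabidopsis thaliana, in and around a large nuclear insertion of mitochondrial DNA next to the centromere. They were chosen by gene identifier, from AT2G07660 to AT2G07850, which gave 96 of the 31280 genes in the table of ribosome-bound RNA (98 of 37318 listed transcripts). They were set beside the 122 mitochondrial genes of the same table (identifiers starting with ATMG), and beside the hotspots of single-stranded RNA in the 320 kb of chromosome 2 that start at base 3200000, 200 of 33187. The study profiled immature, unopened flower bud clusters of the accession Col-0 with 2 libraries and no further genotype or treatment. The first was made from single-stranded RNA and was deposited as strand-specific hotspots. The second came from RNA of pooled monosomes and polysomes after a 15 to 60% sucrose gradient, which was freed of ribosomal RNA and fragmented. It holds 9574408 mapped sequences, which the table calls clones. Each assay had 1 library, so no difference has a replicate check and no p-value is given. Every interval is a 95% interval. Those on levels, densities and ratios of single pairs cover counting error only. Those on shares of genes and on the median pair ratio treat genes as independent draws, which members of 1 insertion need not be.

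Plant mitochondria keep a small genome for core subunits of the respiratory chain, the ATP synthase, cytochrome c maturation and part of the mitochondrial ribosome, and these mRNAs are translated inside the organelle. Mitochondrial DNA also moves into the nucleus, where the copies are usually not expressed and gather differences over time. The copy on chromosome 2 of Col-0 is a well-known case of a young and very large transfer. A short sequence read from such a region matches both genomes, so the reads alone do not tell which of them was transcribed.

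The sequence of the members split them cleanly. In the TAIR10.1 reference (RefSeq), 95 of the 96 genes had a gene model, and 78 of these, 82.1% (72.9 to 89.2, exact binomial), had most of their 20-nt stretches in the mitochondrial genome. The lowest of the 78 had 77.9% and the other 17 had 0%, so no gene lay between. AT2G07679 had no model and was left unclassified. The 78 all lay within bases 3239038 to 3509765 of chromosome 2 (TAIR10.1), a stretch of 270.7 kb of which 99.6% aligned with the mitochondrial genome, in 19 blocks that were 99.6 to 99.97% identical. Of the 17 genes of other sequence, 2 lay before that stretch and 15 after it, among them MCM5 (AT2G07690), a subunit of the replicative helicase, and AT2G07680, a multidrug resistance-associated transporter. The identifier range therefore reaches beyond the insertion, and the members of mitochondrial sequence and those of other sequence are described apart below. In alignments of the spliced models with the mitochondrial genome, gap positions included, 44 of the 78 showed no difference, 25 showed 1 or 2 and 9 showed 3 or more. Not all of these need be base changes between the copies. AT2G07703 showed 9, although all of its 20-nt stretches occurred in the mitochondrial genome.

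Stretches from 4 members show how close the copies are. They come from RefSeq TAIR10.1 and are given 5′ to 3′ on the strand of the member, with bases that differ between the copies in capitals. AT2G07707 encodes subunit 8 of the ATP synthase, a small membrane protein of its F0 part. Its first 90 bases, at chr2:3386292-3386381 (plus strand), had no capitals because they equal those at bases 247403 to 247492 (minus strand) of the mitochondrial genome.
AT2G07707, chromosome 2: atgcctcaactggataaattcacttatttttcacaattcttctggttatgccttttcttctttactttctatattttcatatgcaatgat
AT2G07707, mitochondrion: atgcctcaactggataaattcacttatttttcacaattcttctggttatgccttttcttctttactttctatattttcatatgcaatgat
AT2G07687 encodes subunit III of cytochrome c oxidase, a core subunit of the last complex of the respiratory chain. A stretch of 70 bases at chr2:3312482-3312551 (minus strand) was likewise the same in both genomes.
AT2G07687, chromosome 2: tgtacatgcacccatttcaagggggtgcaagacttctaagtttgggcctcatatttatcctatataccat
AT2G07687, mitochondrion: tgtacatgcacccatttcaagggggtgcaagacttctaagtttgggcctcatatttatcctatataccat
AT2G07698 encodes the alpha subunit of the F1 part of the ATP synthase, and its model held a single difference from the mitochondrial genome, shown within 70 bases at chr2:3361893-3361962 (plus strand). Counted from 1 at the first base shown, and with the mitochondrial base first, the difference is C36T.
AT2G07698, chromosome 2: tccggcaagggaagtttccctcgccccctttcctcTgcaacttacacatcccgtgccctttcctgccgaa
AT2G07698, mitochondrion: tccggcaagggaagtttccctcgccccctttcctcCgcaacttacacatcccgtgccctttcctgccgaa
AT2G07732 carries the catalytic domain of the large chain of Rubisco, the carbon-fixing enzyme, whose functional gene rbcL is in the chloroplast genome. This stretch of 80 bases at chr2:3468510-3468589 (minus strand) exists in all 3 genomes, with 1 base at which chromosome 2 stands alone and 1 at which the chloroplast does.
AT2G07732, chromosome 2: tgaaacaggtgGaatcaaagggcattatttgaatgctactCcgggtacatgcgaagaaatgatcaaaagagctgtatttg
AT2G07732, mitochondrion: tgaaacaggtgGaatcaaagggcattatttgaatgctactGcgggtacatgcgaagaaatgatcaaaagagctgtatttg
AT2G07732, chloroplast: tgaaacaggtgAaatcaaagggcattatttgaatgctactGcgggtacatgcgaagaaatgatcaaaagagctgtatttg

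Clones were found for 54 of the 78 members of mitochondrial sequence, 29 of them with at least 10 clones and 25 with 1 to 9, while 24 were listed at 0. Outside the range, 26557 of 30974 nuclear genes were above 0, a higher share. Levels are given in RPKM, the authors' weighted clones per kb of transcript scaled by the mapped clones of the library, with a Poisson interval on the weighted clones. The median nuclear gene above 0 had 0.206 RPKM, and 18 of the 78 members reached at least 10 times that level, 23.1% (14.3 to 34.0). Among nuclear genes outside the range, 5.29% did so. Of the 17 members of other sequence 1 did, and over the whole range 19 of 96. The last gene inside that limit, AT2G07715, stood at 2.14 RPKM, and the first outside it, AT2G07785, at 2.03 RPKM. The median over all 78, those at 0 included, was only 0.0902 RPKM, so a few members held most of the signal. AT2G07732 and AT2G07698 together held 76.2% of the clones summed over the 78 genes, in which a clone counts at each gene it maps to.

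AT2G07732 was the highest, with 7108 clones and 361 RPKM (346 to 377), rank 5 of the 31070 nuclear genes. It alone made up 50.9% of the weighted clones of the 78 genes. Its model aligned over 573 positions with the chloroplast genome at 96.9% identity, and the longest exact stretch was 110 nt. The chloroplast row of 1440 nt, the length of the RefSeq rbcL gene, held 32716 clones and 1678 RPKM. A sequence closely related to this member is thus present in the chloroplast genome too, in a row with a far higher level.

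Members annotated as subunits of the ATP synthase, the enzyme that makes ATP from the proton gradient, followed. AT2G07698, the alpha subunit, had 2147 clones and 43.5 RPKM (40.9 to 46.3). AT2G07671, annotated with subunit c, which forms the rotating ring of the F0 part, had 432 clones and 30.02 RPKM (25.1 to 35.7). AT2G07707, subunit 8, had 352 clones and 29.5 RPKM (24.7 to 34.9), so the last pair did not differ beyond their intervals. AT2G07741, subunit a of the F0 part, which carries the proton channel, had 419 clones and 9.67 RPKM (7.92 to 11.7). AT2G07777, annotated with a further match to subunit 9, was the lowest of these 5 genes at 1.43 RPKM, and the other 4 were past 10 times the median gene.

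Members annotated with subunits of the electron transport complexes, or with matches to them, ranged from 0.652 to 14.0 RPKM. AT2G07687, subunit III of cytochrome c oxidase, had 291 clones and 14.0 RPKM (11.7 to 16.6). AT2G07695, annotated with a transmembrane domain of subunit II, had 174 clones and 7.42 RPKM (5.69 to 9.50). For complex I, the NADH dehydrogenase that feeds electrons into the chain, AT2G07689 stood at 6.13 RPKM (4.33 to 8.41) with 82 clones. AT2G07751, matched to its subunit 3, stood at 3.25 RPKM (1.63 to 5.80) with 39 clones. The third complex I member, AT2G07785, had 89 clones and was the gene just under the limit. Cytochrome b, the central subunit of complex III, is annotated at AT2G07727, with 193 clones and 5.47 RPKM (4.31 to 6.84). A pair of genes with cytochrome b or b6 matches, AT2G07718 and AT2G07773, had 24 and 22 clones and stayed at 0.680 and 0.652 RPKM. The mitochondrial gene named for AT2G07773, ATMG00910, is listed as an unknown protein.

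The 4 genes annotated with ribosomal proteins had a median of 3.22 RPKM and the 4 cytochrome c biogenesis genes one of 0.968 RPKM. The genes annotated with ribosomal proteins S12 (AT2G07675, 44 clones), L5 (AT2G07725, 82 clones) and S4 (AT2G07734, 67 clones) stood at 4.35, 4.28 and 2.16 RPKM. All 3 passed 10 times the median gene, and AT2G07696, a protein of the S7 family, did not, at 1.08 RPKM. Cytochrome c biogenesis proteins attach heme to cytochromes of the c type. None of the 4 such genes passed, and they lay between 0.596 RPKM at AT2G07771 and 1.10 RPKM at AT2G07768. In all, 12 of the 21 members annotated with such a role passed the limit and none was at 0. Among the other 56 members of mitochondrial sequence, leaving out AT2G07732, 5 passed and 24 were at 0. Nearly all of these are uncharacterized open reading frames or pseudogenes. The highest of them were AT2G07708 with 132 clones and 4.49 RPKM and AT2G07738 with 52 clones and 3.98 RPKM. AT2G07774 with 78 clones (3.36 RPKM), AT2G07674 with 40 (2.37 RPKM) and AT2G07715, annotated as an OB-fold protein, with 40 (2.14 RPKM) were the other 3 that passed. Roles followed the annotation of the member. AT2G07715 was therefore not counted as ribosomal, although ATMG00560, the mitochondrial gene it matches, was listed beforehand among ribosomal proteins. The lowest above 0 was AT2G07722, with 1 clone, 0.00529 RPKM and a mean weight of 0.0213, the lowest of the range. AT2G07749, annotated with a mitovirus polymerase, also had 1 clone and stood at 0.0164 RPKM. By annotation, 15 of the 62 protein-coding genes and 9 of the 16 pseudogenes of mitochondrial sequence were at 0.

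Nuclear genes of mitochondrial respiration give a scale, though not all of them encode subunits of the complexes above. The 19 nuclear-encoded respiratory genes had a median of 3.15 RPKM, from 0.983 to 17.1, and 14 of them passed 10 times the median gene. AAC1, the ATP/ADP carrier of the inner membrane, was the highest at 17.1 RPKM (15.1 to 19.3), and ATP3, the gamma subunit of the ATP synthase, stood at 7.43 RPKM (6.05 to 9.04). The alpha subunit row on chromosome 2 thus lay above all 19. The 5 flower bud markers ranged from 0.852 RPKM for AG to 19.999 RPKM for ATA27, a tapetum gene, and the 3 markers of other organs stayed at 0.282 RPKM or below, as the label of the tissue has it.

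**Figure D1:**
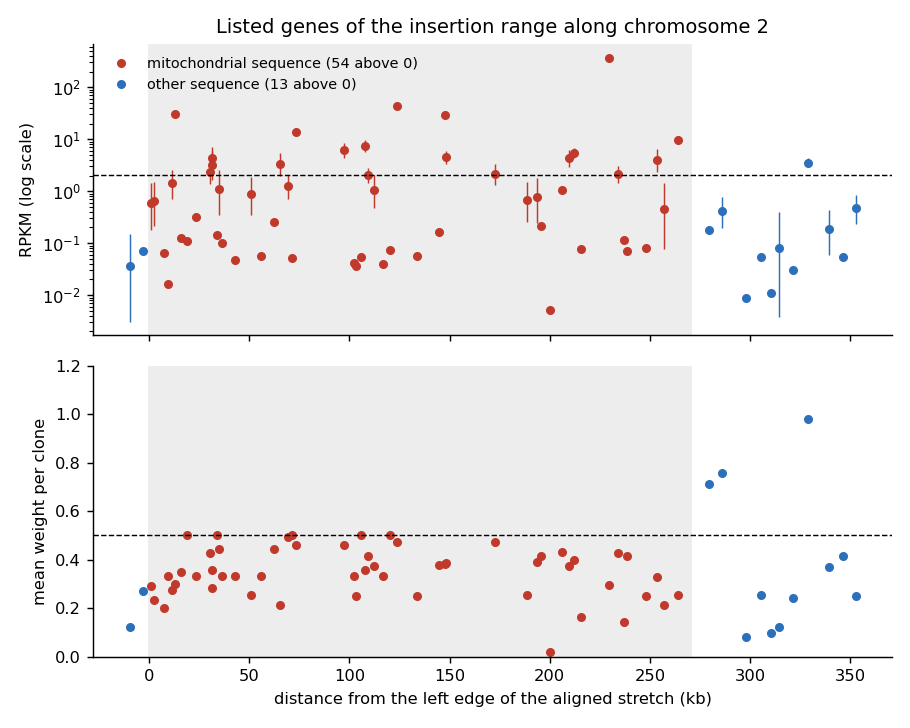
RPKM on a log scale (top, bars are 95% Poisson intervals for genes with at least 10 clones) and mean weight per clone (bottom) of each listed gene above 0, against its distance in kb from the left edge of the stretch aligned with the mitochondrial genome (grey). Dashed lines mark 10 times the median nuclear gene and a mean weight of 0.5. All 54 points of mitochondrial sequence lie at or below 0.5, while 3 of the 13 of other sequence lie above it.

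The deposited table holds, beside the clones of each transcript, an estimated number in which the authors weighted the clones. The ratio of these, the mean weight per clone, is 1 where every clone counts in full. Among the 54 members of mitochondrial sequence above 0 it had a median of 0.354, and 49, or 90.7% (79.7 to 96.9), were under 0.5. Among nuclear genes above 0 outside the range, 41.7% were under 0.5, and their median was 0.533. The other 5 members stood at exactly 0.5, each on at most 2 clones, so none of the 54 exceeded 0.5. For nuclear genes outside the range, 46.7% were at or under 0.5. With at least 10 clones, the 29 members ran from 0.212 at AT2G07774 to 0.495 at AT2G07685, with a median of 0.373, against 0.685 over 9261 nuclear genes outside the range. The rule behind the authors' weights was not stated in the labels or headers.

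Members of other sequence had a wider spread. AT2G07730, a pseudogene beyond the right end of the stretch and the only one of them past 10 times the median gene, had 120 clones, 3.55 RPKM (2.94 to 4.26) and a mean weight of 0.981. MCM5 had 13 clones and a mean weight of 0.756, and AT2G07680 had 9 clones and 0.713. The other 10 of the 13 above 0 were under 0.5. The lowest were AT2G07700 at 0.0833 on 1 clone and AT2G07789 at 0.0971 on 3 clones, so a low mean weight was not particular to mitochondrial sequence. AT2G07780, with 44 clones and a mean weight of 0.250, had 80.5% of its 20-nt stretches at a further place in the nuclear genome, but AT2G07790, with 10 clones and 0.125, had only 3.21%. The 5 genes listed just before the range lay between 0.0533 and 0.667, and the 5 just after it between 0.0100 and 0.333.

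Within the insertion, the mean weight moved with the number of places at which the sequence of a member occurs. For each member, the inverse of the number of places of its 20-nt stretches in the nuclear, mitochondrial and chloroplast genomes of TAIR10.1 was averaged. A value of 0.5 stands for 1 nuclear and 1 mitochondrial place. Across the 29 members with at least 10 clones, which share 1 library and 1 insertion, Spearman's rho between the mean weight and this average was 0.816. The average refers to the TAIR10.1 model, and the mean weight to the listed transcript. The reference also holds another assembly of the mitochondrial genome than the authors' build, TAIR9, so the places counted need not be those open to the authors' clones. For most of the 29 the lengths of the 2 differ, as at AT2G07718 with 5799 nt against 942, so the sequences compared there are not the same. The mean weight was below the average for 28 of the 29, with a median quotient of 0.829 (range 0.449 to 1.004). AT2G07687, nearly all of it at 1 nuclear and 1 mitochondrial place, had 0.460 against 0.498. AT2G07741 had 96.7% of its stretches at a second nuclear place and a mean weight of 0.256 against 0.283. AT2G07671 had 0.299 against 0.301, with a model of 776 nt and a listed length of 449 nt. The lowest quotient was that of AT2G07774, with a mean weight of 0.212 against 0.473. For AT2G07732 the values were 0.296 and 0.447, where a stretch present once in each of the 3 genomes would have 0.333. The 4 members mostly at 2 or more nuclear places ran from 0.233 to 0.293, and the other 25 from 0.212 to 0.495, so the ranges overlapped.

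**Figure D2:**
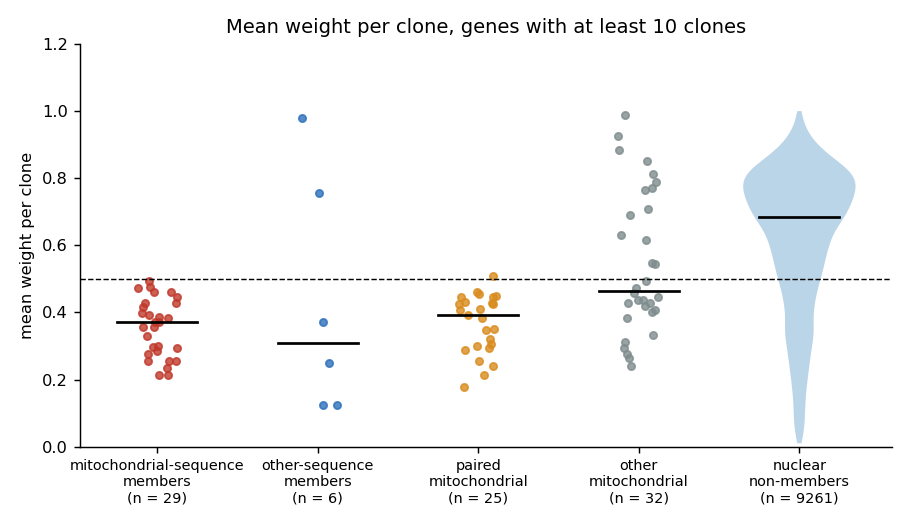
Mean weight per clone of genes with at least 10 clones, with a point for each gene (a density for nuclear genes outside the range) and a black line at each median. The 29 members of mitochondrial sequence have a median of 0.373 and the 25 paired mitochondrial genes 0.391, both with nearly every gene under the dashed line at 0.5, while the other 32 mitochondrial genes reach 0.988.

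RefSeq notes name the closest mitochondrial gene for 45 members, which gave 45 pairs with 44 mitochondrial rows of the table. In 17 pairs both rows had the same listed length, and 13 of these were equal in length, clones and weighted clones. Of the 13, 5 were at 0 on both sides and 4 had at least 10 clones. AT2G07707 and its counterpart ATMG00480 were both listed at 477 nt with 352 clones and a mean weight of 0.383. The pair of AT2G07718 and ATMG00590 had 24 clones each, that of AT2G07771 and ATMG00900 had 15 and that of AT2G07739 and ATMG00370 had 12. The levels of such a nuclear and mitochondrial row cannot be told apart in this table.

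Pairs of equal length that were not equal in clones were close. AT2G07695 had 174 clones and ATMG01280 173, AT2G07675 had 44 and ATMG00980 46, and AT2G07777 had 39 and ATMG01090 41. AT2G07681 had 26 clones against 15 for ATMG00900, a ratio of 1.73 whose interval of 0.885 to 3.52 includes 1. Over the 34 pairs above 0 on both sides, the median ratio of member to counterpart in clones per kb was 0.996 (0.915 to 1, the binomial interval of a median). Among the 25 pairs with at least 10 clones on both sides, 21 lay within 1.5 times of each other, and their mean weights differed by a median of 0.0109 and by at most 0.0553.

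The 4 pairs outside 1.5 times were AT2G07681, AT2G07674, AT2G07768 and AT2G07785. The last of these, annotated with complex I, was the lowest at 0.232 (0.169 to 0.318). It is listed at 1905 nt with 89 clones, and ATMG01275 at 387 nt with 78 clones, so the clones are alike and the lengths are not. AT2G07698 also fell below its counterpart ATMG01190, at 0.693 (0.651 to 0.737), with 2147 clones on 2433 nt against 1941 on 1524 nt. AT2G07671 stood at 0.792 (0.699 to 0.898) to ATMG01080, with 432 clones on 449 nt against 612 on 504 nt. AT2G07687 was higher than ATMG00730, at 1.23 (1.05 to 1.45), with 291 clones on 998 nt against 342 on 1447 nt. AT2G07732 had 7108 clones on 607 nt and ATMG00280 had 3993 on 333 nt, a ratio of 0.977 (0.939 to 1.02). These intervals treat the clones of both rows as separate, although a clone from identical sequence can count in both, and the listed lengths differ in 28 of the 45 pairs.

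**Figure D3:**
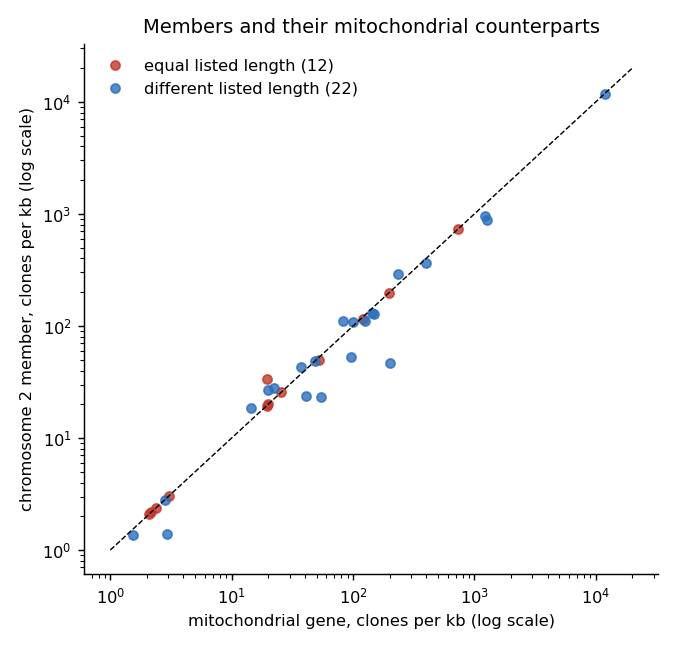
Clones per kb of each chromosome 2 member against its mitochondrial counterpart on log axes, for the 34 pairs above 0 on both sides, with a dashed line of equality. Of the 12 pairs of equal listed length (red), 8 lie on the line and AT2G07681 lies farthest from it at a ratio of 1.73, while the lowest ratio, 0.232, is that of AT2G07785 among the 22 of different length (blue).

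Mitochondrial coding sequence that is wholly or mostly missing from the aligned stretch in the TAIR10.1 reference served as a contrast. Sequence of the insertion that the reference may not hold was not examined. The coding sequences came from another assembly of the mitochondrial genome than the authors' build. Of 33 coding sequences in the RefSeq mitochondrial genome, 16 had all of their 20-nt stretches in the aligned stretch of chromosome 2, and 23 had at least 95% of them. There was none for atp4, ccmB, nad4L and nad9, 1.15% for cox1, 9.92% for rps3, 27.0% for cox2 and 38.4% for rpl16. The table does not name its mitochondrial rows, so they were set beside these coding sequences by listed length alone, where 1 row and 1 coding sequence had the same length. One such row was left out because its RefSeq note names an unknown protein, which left 18. With at least 10 clones, the 6 rows with the length of a coding sequence that was under 50% in the stretch had mean weights of 0.691 to 0.883. The 11 with the length of one that was at least 95% in it had 0.293 to 0.447, and the ranges of these uniquely matched rows did not overlap. Rows without a unique length match were not counted, and some of them fall outside both ranges. ATMG00060 and ATMG00513, listed beforehand under nad5 (98.4% in the stretch), had 0.926 on 60 clones and 0.293 on 381. ATMG00650, listed beforehand under nad4L, had 0.617 on 32 clones. The row of 1584 nt, the length of cox1, had 746 clones and a mean weight of 0.850. The row of 579 nt, the length of atp4, had 130 clones and 0.883, and that of 573 nt, the length of nad9, 172 clones and 0.765. The row of 783 nt, the length of cox2, was the lowest of the 6 at 0.691 with 398 clones. Among all mitochondrial rows with at least 10 clones, the 25 paired with a member had mean weights of 0.178 to 0.509, with 24 under 0.5. Of the 32 unpaired, 18 were under 0.5 and 12 over 0.6, up to 0.988.

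**Figure D4:**
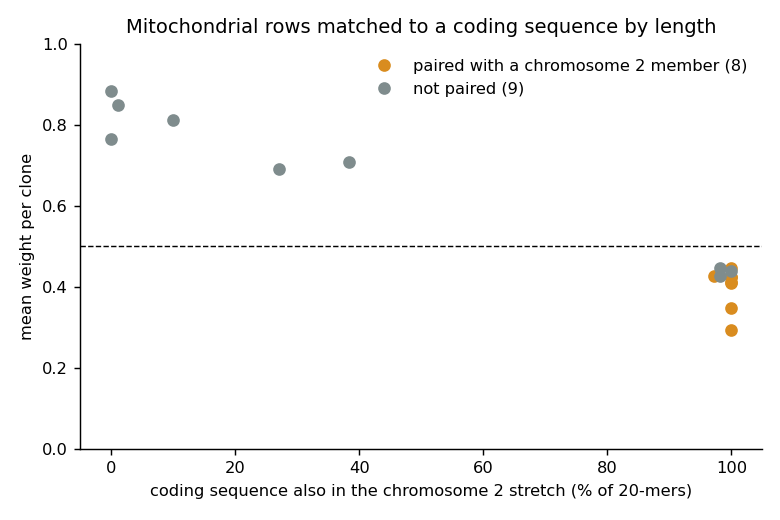
Mean weight per clone of the 17 mitochondrial rows with at least 10 clones whose listed length matches a RefSeq coding sequence, against the percentage of that coding sequence's 20-nt stretches found in the chromosome 2 stretch. The 6 rows under 50% lie between 0.691 and 0.883, and the 11 at 95% or more lie between 0.293 and 0.447.

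Hotspots of single-stranded RNA were dense across the insertion and nearly absent beside it. That window of 320 kb held 62.5 hotspots per 100 kb (54.1 to 71.8), 2.62 times (2.26 to 3.02) the 23.9 of the rest of chromosome 2. Of its 200 hotspots, 197 lay in the aligned stretch, at 72.8 per 100 kb (63.0 to 83.7). The 100 kb before that stretch held 3 hotspots and the 100 kb after it 4. Within the stretch, bins of 20 kb that lay wholly inside held between 10 and 20 hotspots, so the density began and ended with the mitochondrial sequence. There were 109 on the plus and 88 on the minus strand. Their median width of 65 nt and median score of -2.62 equalled those of the 259 hotspots deposited on the mitochondrial genome. They were not particular to either, since the rest of chromosome 2 had 64 nt and the same median score. Scores reached -3.59 in the insertion, -10.6 on the mitochondrial genome and -11.4 on the rest of chromosome 2.

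Many of these hotspots had a twin on the mitochondrial genome. A hotspot of equal width and equal score existed there for 156 of the 197 in the stretch, 79.2%, and for 33.3% of the 4627 elsewhere on chromosome 2, so equal width and score alone were common there too. Position was then added: at least 3 hotspots had to keep a similar distance to their twins, along the same or the opposite strand. Sorted distances were joined into a run where neighbours differed by at most 60 nt, so a whole run could span more. By that rule 143 of the 197, 72.6%, fell into 7 runs, the longest of 44 hotspots, and none of the 4627 elsewhere did. The runs took in 146 of the 259 mitochondrial hotspots, 56.4%. Intervals of equal width and score were thus listed in both genomes for most hotspots of the insertion, with similar spacing.

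Over the members themselves, the share of genes with a hotspot was close to that of other genes. Overlap was counted over the whole span of a gene, introns included, for members and other genes alike. A hotspot overlapped 39 of the 78 members of mitochondrial sequence on the same strand, 50.0% (38.5 to 61.5), close to the 47.6% of nuclear genes outside the range. With the range taken whole, 41 of 96 had one, since of the 17 of other sequence only AT2G07680 and MCM5 did, with 2 each. Members above 0 clones had one in 35 of 54 cases and members at 0 in 4 of 24. This split was not made for genes outside the range, so it is not shown to be particular to the members. AT2G07806, an uncharacterized gene of 2 clones, had the most with 7. Its 7 exons run from base 3484830 to 3489421, far more than its listed length of 639 nt, so its hotspots need not lie in exons. AT2G07671 and AT2G07681 had 3 each, AT2G07732 and AT2G07698 had 2 each, AT2G07707 and AT2G07687 had 1 each, and AT2G07741 and AT2G07695 had none. Of the 197 hotspots in the stretch, 66 lay on a member on its strand, 27 only on the opposite strand of one and 104 on no listed member. These overlaps rest on a check of positions that separated little inside the window: 37.1% of hotspot bases there lay in exons of the same strand, against 29.3% after a shift of 1000 nt and 31.6% after 10000 nt. Hotspots on the mitochondrial genome were not placed on genes, because the reference holds another assembly of it than the authors' build.

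**Figure D5:**
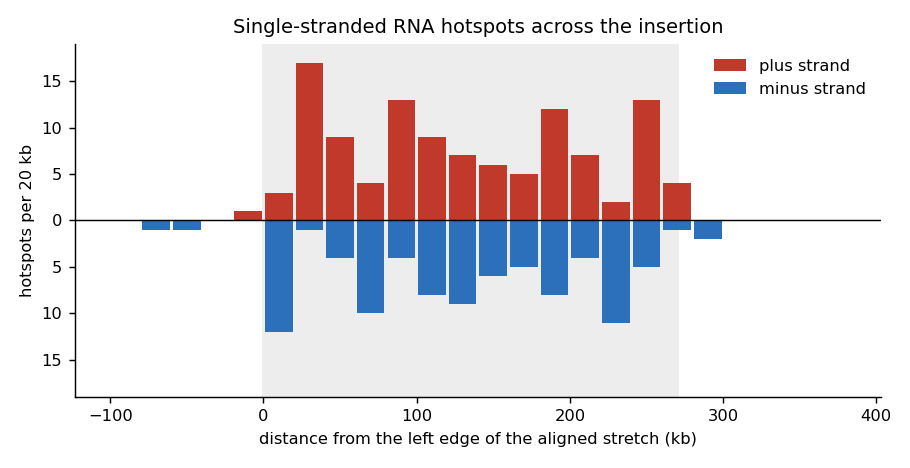
Hotspots of single-stranded RNA per 20 kb, with those of the plus strand above and those of the minus strand below the line, against distance from the left edge of the stretch aligned with the mitochondrial genome (grey). The 100 kb on the left hold 3 hotspots, against 10 to 20 in each bin that lies wholly inside the stretch.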

How the data were processed

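Per the submitters' processing notes, the authors used cutadapt 0.9.5 and Bowtie 0.12.7, and the genome build was TAIR9. Neither the hotspot caller nor the rule for weighting clones was stated there, in the labels or in the headers. Each transcript has in the deposited table a clone count and an estimated count, made by the authors from weighted clones. The deposited RPM equals weighted clones divided by the mapped clones and multiplied by 1000000, and the deposited RPKM is that value per kb of listed length. The deposited hotspots carry a strand and a score.

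For each gene the listed transcript with the most weighted clones was used. Gene models, products and sequence came from RefSeq TAIR10.1. The listed and the model length were equal for 59 of the members, and mean numbers of places refer to the model. Exact 20-nt stretches of each member were searched on both strands of all 3 genomes, and alignments used BLASTN 2.17.0. Alignment blocks had at least 500 nt and 95% identity. Mitochondrial counterparts came from RefSeq notes, not from a sequence search as first planned, because the reference does not carry the identifiers of the table. The TAIR9 positions of hotspots were used with TAIR10.1 genes after a check of register: on the rest of chromosome 2, 86.9% of hotspot bases lay in exons of the same strand, against 49.4% after a shift of 1000 nt and 25.6% after 10000 nt. In the window itself the shares were 37.1%, 29.3% and 31.6%. Intervals are exact Poisson or binomial at 95%, from scipy 1.17.1. The interval code and the counting of places were tested on simulated data. With 1 library per assay no test was made.

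Genes named with values were the 15 members of highest RPKM, the extremes of mean weight, those with hotspots or a respiratory or ribosomal role, and their counterparts. AT2G07785, AT2G07780, AT2G07790, the rows matched by length and the rows listed under nad5 and nad4L were named after their values were seen. The members and lists were chosen with earlier results of these data known. Sequencing depth behind the hotspots is unknown.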

Additional observations from a re-analysis of the deposited data

How the results depend on the processing

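The results were recomputed under 18 alternatives, 3 of them chosen after seeing the data. The 19 genes of the range at 10 times the median nuclear gene became 12 at 20-fold, and under 4 other settings of isoform, median, weighting and fold they ranged from 19 to 26. The 60 genes with a mean weight under 0.5 became 34 when at least 10 clones were required, which leaves 36 genes to count, and was 46 at a limit of 0.4 and 65 both at 0.6 and with values of exactly 0.5 included. The ratio of hotspot density to the rest of chromosome 2 rose from 2.62 to 3.06 when the aligned stretch replaced the window, since the window takes in flanks with few hotspots. The pair ratio, the share of members with mitochondrial sequence and the number of members with a hotspot stayed within their intervals or within 1.5 times. No paired analysis was possible because each assay has 1 library. Single low values rest on few clones: 3 clones on a transcript of 600 nt are 0.522 RPKM. Which genome the shared clones came from was not tested.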
